A study of Mus musculus with 35 samples.

Results

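The transcriptome around the injection site was compared between mice that received IL-4 MSCs and mice that received plain MSCs, 1 week post-injury (wpi). The comparison holds 10 of the 34 libraries of the series with a count column, 5 of IL-4 MSC mice and 5 of MSC mice, 1 library per mouse, chosen by their labels alone. All were male C57BL/6N mice (strain label C57BL/6NCrl), 8 to 9 weeks old at the start, with a closed head injury, an impact to the intact skull that injures the brain diffusely. On day 5 after injury, cells were injected into the left hippocampus, and tissue was taken 2 days later. MSCs are mesenchymal stromal cells, here primary cells of C57BL/6N mice bought as 1 lot. IL-4 MSCs were the same cells transfected with synthetic IL-4 mRNA by a polymer reagent, Viromer Red. The plain MSCs were not transfected, so the IL-4 protein, the synthetic mRNA and the reagent cannot be told apart in this comparison. The number before the dash in the labels also differs between the groups, and whatever goes with it cannot be told apart from the treatment. PBS-injected injured mice at 1 wpi (5 mice), uninjured Sham mice (5 mice) and the same treatments at 3 wpi served for reference. By their labels, 2 of the Sham mice belong to the 1-week set and 3 to the 3-week set, so this group mixes collection times.

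Interleukin-4 (IL-4) is a cytokine of type 2 immunity. It binds the receptor chain Il4ra, paired with the common gamma chain Il2rg or with Il13ra1, and Janus kinases then phosphorylate the transcription factor STAT6. In macrophages this program is called alternative or M2 activation and includes arginase-1 (Arg1), the chitinase-like proteins (Chil3, Chil4), resistin-like alpha (Retnla) and the mannose receptor (Mrc1, CD206). Classical or M1 activation, driven by interferon gamma and microbial products, is instead marked by nitric oxide synthase (Nos2), Il1b, Tnf and Il6. After a head injury the brain holds resident microglia, border macrophages of the meninges and vessels, and monocytes that enter from blood.

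The 10 libraries held 29838423 to 36812413 estimated counts, and 3 counts, used as the floor of detection, were 0.08149 to 0.1005 CPM, counts scaled to 1000000 per library. Levels below are CPM on trimmed-mean (TMM) library sizes, and the 5 values of a group are given in the order of the mouse numbers 1 to 5. Across genes, log2 CPM correlated at 0.985 to 0.994 within groups and 0.978 to 0.988 between them. The labelled tissue is left cortex. None of the 14 cortex markers, 15 hippocampus markers or 14 striatum markers passed the test, beside 8.66% of all genes, and their mean log2 CPM overlapped between the groups. The striatum score varied the most of the 3, from 4.74 to 5.70 in IL-4 MSC mice and 3.82 to 5.76 in MSC mice. The pieces thus differed between mice of a group, and the overlap does not show that the dissections matched. The library labelled MSC mouse 3 stood apart. Its mean log2 CPM of 7 posterior Hox genes, which stromal cells of the trunk express and adult forebrain does not, was -2.70, inside the PBS range of -3.01 to -2.58, while the other 4 MSC mice had -1.5 to -0.81 and the IL-4 MSC mice -1.61 to -0.80. Its score of 18 monocyte markers was 1.72, against 0.49 to 0.63 in the other MSC mice. Without this mouse 1434 genes passed as higher and 96 as lower with IL-4 MSCs, where all 10 mice gave 1311 and 172, and counts below are also given without it where they change.

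Far more genes were higher than lower in IL-4 MSC mice. Of 17131 genes tested, 1311 were higher (7.65%) and 172 lower (1.00%) than in MSCs, 8.66% in all, at a Benjamini-Hochberg adjusted p under 0.05 in edgeR's quasi-likelihood test. The higher genes had a median log2 fold change of 0.606, 363 of them rose by at least 1 on the log2 scale, 106 by at least 2 and 22 by at least 4. The lower genes had a median of -0.139 and 5 of them fell by at least 1. Every IL-4 MSC mouse lay above every MSC mouse in 1257 genes (7.34%) and below in 397 genes (2.32%). The median over all genes tested was -0.0081. The shares of 7.65% higher and 1.00% lower are the background for the list counts below. The count of lower genes depended on the scaling, with 114 under DESeq2 size factors in the same edgeR fit and 72 with library size alone, and on single mice. It was 51 to 105 without any 1 of the 5 IL-4 MSC mice or of MSC mice 2 to 5. In these bulk samples, more cells of a type and more RNA per cell cannot be told apart.

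**Figure D1:**
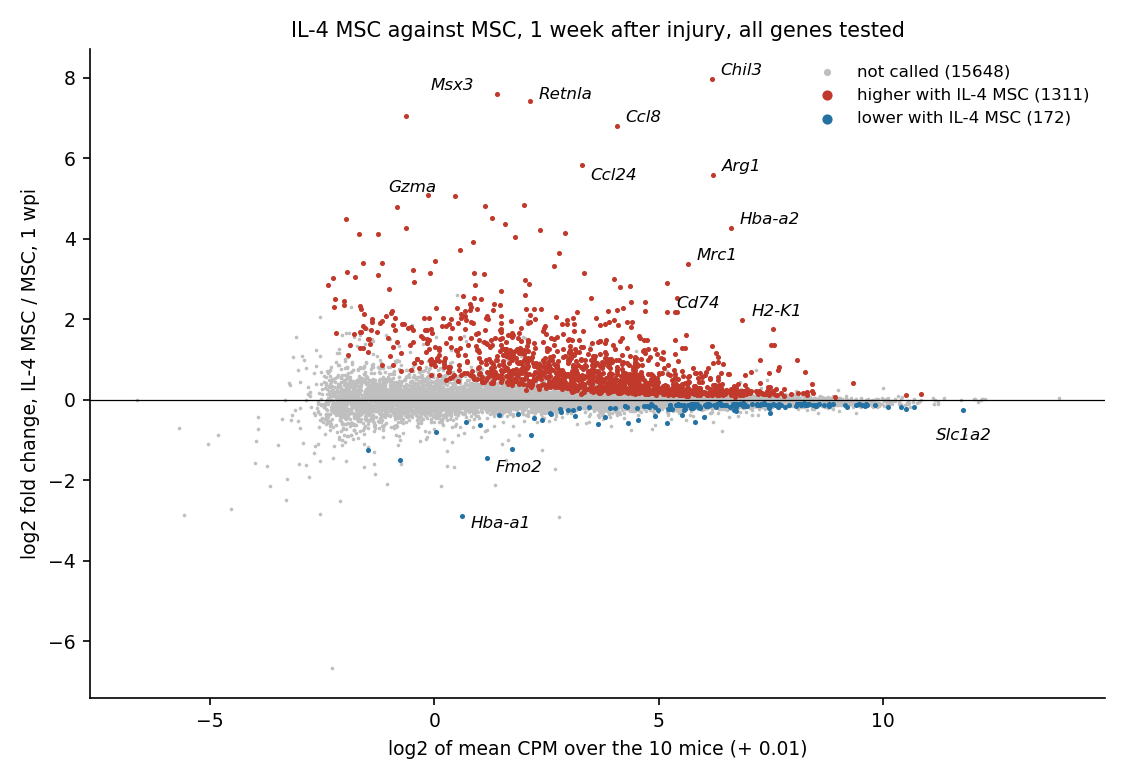
Log2 fold change of IL-4 MSCs over MSCs at 1 wpi (y axis) against the log2 of the mean CPM over the 10 mice (x axis), 1 point per gene tested. The 1311 higher genes (red) reach a log2 fold change of 7.98 for Chil3, whereas the 172 lower genes (blue) mostly lie close to 0, with Hba-a1 the lowest at -2.88.

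Il4 reads were scarce in every group. Il4 (ENSMUSG00000000869, chromosome 11, 53602982 to 53618669) had 4, 7, 10, 12 and 9 counts in the IL-4 MSC mice and 5, 9, 5, 4 and 4 in the MSC mice. The groups overlapped, and the difference of 0.0856 CPM gave an exact permutation p of 0.111 (two-sided, adjusted p = 0.389 over 7 low genes, smallest p possible 0.00794). PBS and Sham mice held 2 to 6 and 0 to 7 counts. The sequence of the synthetic mRNA is not given in the sources used here, and whether its reads could be assigned to Il4 was not tested. Il13, the other ligand of the shared receptor, averaged 0.0487 and 0.0342 CPM, below the floor in both groups.

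Each of the 4 receptor genes tested was higher in IL-4 MSCs. Il4ra (ENSMUSG00000030748, chromosome 7, 125552120 to 125579474), the signalling chain, had 38.2, 34.9, 43.9, 38.7 and 30.7 CPM in the IL-4 MSC mice and 14, 12.3, 18.4, 11.9 and 9.73 CPM in the MSC mice. Every IL-4 MSC mouse was above every MSC mouse (log2 fold change 1.49, SE 0.23, adjusted p = 2.54e-05), and Sham mice had 5.17 to 7.87 CPM. Il13ra2, a receptor that binds IL-13 without classical STAT6 signalling, rose the most, with 1.96, 2.03, 1.99, 1.17 and 1.1 CPM in the IL-4 MSC mice and 0.109, 0.152, 0.133, 0.159 and 0.374 CPM in the MSC mice (log2 fold change 3.15, SE 0.46, adjusted p = 5.72e-06). Il2rg rose by 1.30 on the log2 scale. Il13ra1 rose from 11.3 ± 1.3 to 15 ± 0.425 CPM (SD, n = 5 each, log2 fold change 0.41, SE 0.11, adjusted p = 0.0148), and its call was lost without MSC mouse 5 (adjusted p = 0.0573).

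Of 13 genes for Janus kinases, STAT6 and their regulators, 6 were higher and none lower (7 higher without MSC mouse 3). Stat6 (ENSMUSG00000002147, chromosome 10, 127642986 to 127660957) had 20.7, 23.4, 20.7, 22.6 and 20.2 CPM in the IL-4 MSC mice and 14.9, 14.8, 15.6, 13.2 and 12.7 CPM in the MSC mice, with no overlap (log2 fold change 0.59, SE 0.08, adjusted p = 2.71e-06). Socs1, a feedback inhibitor induced by cytokine signalling, had 3.17, 4.58, 2.8, 2.79 and 2.73 CPM in the IL-4 MSC mice and 1.34, 1.18, 0.908, 1.59 and 1.06 CPM in the MSC mice (log2 fold change 1.40, SE 0.20, adjusted p = 3.58e-06). IL-4 MSC mouse 2 was the highest for Socs1, and the groups did not overlap. Socs3 rose by 1.04, the phosphatase Ptpn6 by 0.72, Jak2 by 0.43 and Cish by 0.37 on the log2 scale. Among 14 transcription factors of alternative activation, 7 rose, among them Batf3 and Maf with log2 fold changes of 1.01 and 0.66. Maf helps to set macrophage identity. Irf4 and Pparg, which are often placed downstream of IL-4, did not pass the test. Irf4 had 1.01 ± 0.131 CPM against 0.699 ± 0.169 CPM (adjusted p = 0.168) and Pparg 2.64 ± 0.264 against 2.58 ± 0.563 CPM (adjusted p = 0.943; SD, n = 5 each).

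Most effector genes of alternative activation were higher, and Chil3 and Retnla were among the 3 highest genes by log2 fold change. Of 31 tested, 24 were higher and none lower, with a median log2 fold change of 1.38 against -0.0081 over all genes (25 higher without MSC mouse 3). Retnla, Chil4, Pdcd1lg2 and Alox15 had at most 8, 10, 10 and 6 counts in any mouse of the other groups. They passed the low-count filter through the IL-4 MSC mice of 1 wpi alone, which raises the share and median of this list. Cd209d and Il10 were too low to be tested. Chil3 (ENSMUSG00000040809, chromosome 3, 106147554 to 106167564), the chitinase-like protein Ym1, had 182, 144, 95.2, 198 and 103 CPM in the IL-4 MSC mice and 0.219, 0.425, 1.01, 0.669 and 0.499 CPM in the MSC mice. The lowest IL-4 MSC mouse was far above the highest MSC mouse (log2 fold change 7.98, SE 0.40, adjusted p = 1.44e-14). Arg1 (ENSMUSG00000019987, chromosome 10, 24915221 to 24927484), which turns arginine into ornithine, had 164, 148, 163, 147 and 106 CPM in the IL-4 MSC mice and 2.08, 0.971, 9.05, 1.27 and 1.37 CPM in the MSC mice. MSC mouse 3 was the highest of its group for Arg1 and IL-4 MSC mouse 5 the lowest of its own, yet these mice did not overlap (log2 fold change 5.58, SE 0.46, adjusted p = 5.63e-10). PBS mice had 0.317 to 6.68 CPM and Sham mice 0.0926 to 0.295 CPM.

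Retnla (ENSMUSG00000061100, chromosome 16, 48842551 to 48844461) had 7.12, 11.9, 8.38, 6.29 and 9.73 CPM in the IL-4 MSC mice and 0.0274, 0.0304, 0.107, 0.0318 and 0.0312 CPM in the MSC mice, from 1 to 4 counts per MSC mouse (log2 fold change 7.43, SE 0.39, adjusted p = 3.15e-15). Mrc1 (ENSMUSG00000026712, chromosome 2, 14229392 to 14332057) had 103, 81.9, 89.4, 101 and 82.9 CPM in the IL-4 MSC mice and 8.81, 7.22, 11, 8.47 and 8.58 CPM in the MSC mice. All 5 IL-4 MSC mice lay far above the highest MSC mouse (log2 fold change 3.37, SE 0.19, adjusted p = 5.42e-14). Cd163, the scavenger receptor for haemoglobin bound to haptoglobin, had 32.6, 31.1, 42.5, 41.8 and 30.8 CPM in the IL-4 MSC mice and 3.67, 4.95, 4.94, 5.38 and 6.36 CPM in the MSC mice (log2 fold change 2.82, SE 0.20, adjusted p = 9.07e-12). Alox15, a lipoxygenase, rose by 5.10, Pdcd1lg2, the ligand PD-L2 of the inhibitory receptor PD-1, by 4.82, and the lectins Mgl2 and Clec7a by 4.05 and 2.79 on the log2 scale. Chil4 held 82 counts over the 5 IL-4 MSC mice and 3 over the MSC mice, a ratio of 27.8 with a 95% counting interval of 9.17 to 137 (exact binomial, counting error only). Chil3 and Chil4 are near-identical copies, and the counting could split reads between them. The 7 members that did not pass were Ch25h (1.09), Cd209f (0.53), Msr1 (0.37), F13a1 (0.34), Matk (-0.01), Il1rn (-0.03) and Lyve1 (-0.15), given as log2 fold changes.

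**Figure D2:**
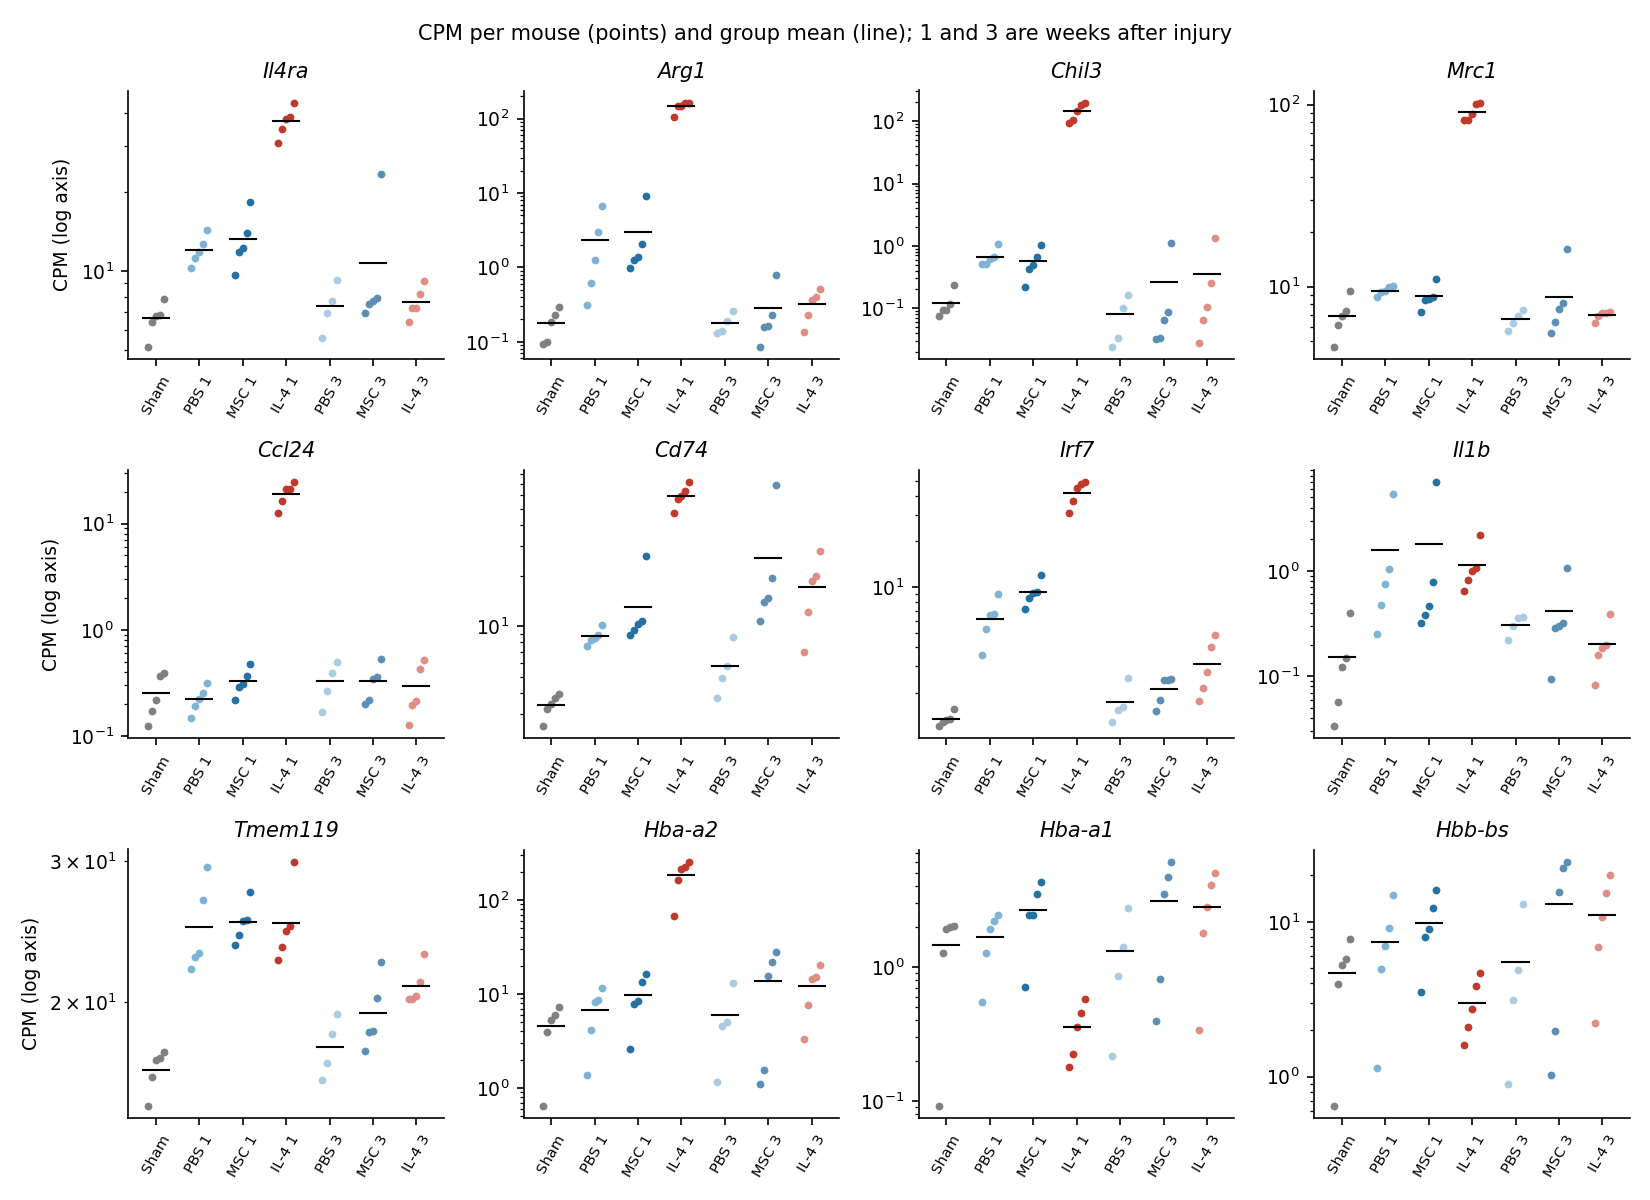
CPM per mouse (points, log axis) and group mean (line) of 12 genes in Sham, PBS, MSC and IL-4 MSC mice at 1 and 3 wpi. Il4ra, Arg1, Chil3, Mrc1, Ccl24, Cd74 and Irf7 are high in IL-4 MSCs at 1 wpi, Tmem119 is level among the injured groups of that week, Il1b is highest in 1 MSC mouse, and Hba-a2 is high in IL-4 MSCs while Hba-a1 and Hbb-bs are not.

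STAT6 prefers TTC and GAA with 4 bases between them (TTCNNNNGAA), and other STAT factors prefer 3 bases (TTCNNNGAA), whereas interferon response factors bind repeats of GAAA (GAAANNGAAA). These letters were searched on both strands in the RefSeq promoter windows of GRCm38.p6, 250 bases before to 50 bases after each start. TTCNNNNGAA was found in 6.95% of all 32851 windows and in 5.7% of the 16731 windows of genes tested. Genes called higher held it in 6.69% of 1285 windows, and 22 of the alternative activation effectors in 7 of 29 windows (24.1%). The interferon-stimulated genes described below held it at a like share, in 3 of 15 windows (20%). The 7 effector windows belong to Il1rn, Clec7a, Cd36, Retnla and Pdcd1lg2. Il1rn and Clec7a each gave overlapping windows, and Il1rn was not called higher. GAAANNGAAA was found in 3.44% of all windows, 3.16% of those of genes tested and 8.87% of those of genes called higher. In 14 of the interferon-stimulated genes it was found in 8 of 15 windows (53.3%). TTCNNNGAA was found in 8.30% of all windows, 7.11% of those of genes tested and 8.64% of those of genes called higher. It was found in 10.3% of the effectors' windows and 20% of the interferon-stimulated genes' windows. A match is a description of letters, not a binding site, and these shares were not tested. The stretches below are 100 bases around a match, 5′ to 3′ along the gene, with 1 match in capitals. They are shown because Retnla and Pdcd1lg2 are among the 15 genes with the highest log2 fold changes and hold the 4-base spacing, because the windows of the paralogs Chil3 and Chil4 hold the 3-base spacing in a stretch identical at 90 of 100 bases, and because Ifit1 and Socs1 hold the interferon-type repeat, in Ifit1 as its reverse complement. Both windows hold that repeat at 2 places, of which 1 is in capitals. Arg1 had no promoter in the table.
Retnla, chr16:48842419-48842518, plus strand: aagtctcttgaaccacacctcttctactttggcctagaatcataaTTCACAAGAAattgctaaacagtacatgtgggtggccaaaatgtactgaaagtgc
Pdcd1lg2, chr19:29410792-29410891, plus strand: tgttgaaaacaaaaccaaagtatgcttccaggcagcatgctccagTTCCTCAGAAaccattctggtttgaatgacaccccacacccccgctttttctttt
Chil3, chr3:106167683-106167782, minus strand: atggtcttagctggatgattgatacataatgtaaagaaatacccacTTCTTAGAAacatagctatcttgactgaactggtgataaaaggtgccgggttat
Chil4, chr3:106219626-106219725, minus strand: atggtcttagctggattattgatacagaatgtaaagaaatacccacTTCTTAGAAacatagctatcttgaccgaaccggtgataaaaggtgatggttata
Ifit1, chr19:34640740-34640839, plus strand: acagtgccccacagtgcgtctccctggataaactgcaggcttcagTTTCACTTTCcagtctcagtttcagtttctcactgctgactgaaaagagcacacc
Socs1, chr16:10785565-10785664, minus strand: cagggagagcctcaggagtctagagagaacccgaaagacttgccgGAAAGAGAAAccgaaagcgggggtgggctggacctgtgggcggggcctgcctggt

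A few genes of arginine use were higher and most did not pass the test. Of 20 genes for arginine and polyamine metabolism, 6 were higher (30%, beside 7.65% of all genes) and none lower, and the median log2 fold change was 0.045. The arginine transporter Slc7a2 had 106, 114, 97, 117 and 92.5 CPM in the IL-4 MSC mice and 50.9, 53.4, 59.9, 53.2 and 57.4 CPM in the MSC mice, with no overlap (log2 fold change 0.94, SE 0.07, adjusted p = 9.07e-12). Nos2, which competes with Arg1 for arginine, was also higher, with 3.36, 3.59, 2.89, 2.94 and 1.83 CPM in the IL-4 MSC mice and 1.04, 0.82, 1.9, 0.955 and 0.406 CPM in the MSC mice (log2 fold change 1.50, SE 0.24, adjusted p = 2.33e-05). Its groups overlapped at 1 pair of mice, MSC mouse 3 and IL-4 MSC mouse 5. Gatm, Sat1 and Odc1 rose by 0.61, 0.59 and 0.27 on the log2 scale, and the spermidine and spermine synthases Srm and Sms had log2 fold changes of -0.03 and -0.14 without passing the test.

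No marker of classical activation that could be tested was called lower, while Il6, Tnf, Il12b, Il23a and Ifng were too low for the filter. Of 16 tested, 7 were higher (43.8%, beside 7.65% of all genes) and none lower. These were Ccl5 (1.96), Nos2 (1.50), Cxcl10 (1.22), Irf5 (0.96), the Fc receptor Fcgr1 (0.89), Irf1 (0.62) and the costimulatory Cd86 (0.61), as log2 fold changes. The call of Cxcl10 was lost without IL-4 MSC mouse 2 (adjusted p = 0.0517). Il1b had 2.19, 0.822, 1.07, 0.989 and 0.639 CPM in the IL-4 MSC mice and 0.383, 0.789, 6.97, 0.318 and 0.468 CPM in the MSC mice. The high value was MSC mouse 3 alone, and the log2 fold change of -0.68 (adjusted p = 0.679) became 1.22 without it (adjusted p = 0.321). Tnf and Il6 were too low for the filter, at 0.131 and 0.219 CPM for Tnf and 0.263 and 0.118 CPM for Il6 in IL-4 MSCs and MSCs, with exact permutation p of 0.183 and 0.0794 (adjusted p = 0.426 and 0.389 over 7 low genes). Il10, Ifng and Il12b averaged at most 0.0299 CPM in either group and were not detectable at this depth.

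Several chemokines that attract eosinophils and monocytes were higher. Of 9 genes of type 2 chemotaxis tested, 4 were higher. Ccl24 (ENSMUSG00000004814, chromosome 5, 135569937 to 135573049), or eotaxin-2, had 21.3, 20.9, 24.5, 16.2 and 12.6 CPM in the IL-4 MSC mice and 0.219, 0.364, 0.48, 0.287 and 0.312 CPM in the MSC mice, without overlap (log2 fold change 5.82, SE 0.27, adjusted p = 4.3e-16). Ccl8, a ligand of Ccr8 and other receptors, had 32.8, 32.7, 31.4, 42.1 and 27 CPM in the IL-4 MSC mice and 0.301, 0.243, 0.374, 0.35 and 0.187 CPM in the MSC mice (log2 fold change 6.81, SE 0.39, adjusted p = 1.1e-13). Ccl11 and the eotaxin receptor Ccr3 rose by 2.93 and 4.28 on the log2 scale. Ccr3 had at most 5 counts in any mouse of the other groups. It passed the filter through the IL-4 MSC mice of 1 wpi alone, which raises the share of this list. Ccl17 and Ccl22, the other well known type 2 chemokines, had log2 fold changes of -0.19 and 0.38 and did not pass the test (adjusted p = 0.798 and 0.7).

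Of 17 chemokines, growth factors and receptors of monocytes, 10 were higher and none lower (12 higher without MSC mouse 3). Ccl2, which draws monocytes by its receptor Ccr2, had 8.95, 5.92, 9.31, 5.15 and 4.59 CPM in the IL-4 MSC mice and 1.51, 1, 2.19, 1.72 and 0.624 CPM in the MSC mice (log2 fold change 2.26, SE 0.38, adjusted p = 6.87e-05). Ccl7 had 10.9, 8.5, 13.1, 8.3 and 7.14 CPM in the IL-4 MSC mice and 0.684, 0.182, 0.561, 0.732 and 0.406 CPM in the MSC mice (log2 fold change 4.21, SE 0.34, adjusted p = 1.16e-10). Neither gene overlapped between the groups. Ccl6, Ccl9 and Ccr2 rose by 2.99, 2.43 and 1.88 on the log2 scale. The microglial pair Cx3cl1 and Cx3cr1 had log2 fold changes of -0.07 and -0.21 (adjusted p = 0.642 and 0.0909), and Ccl3 of -0.82 (adjusted p = 0.251), where MSC mouse 3 had 5.05 CPM and the other MSC mice 1.11 to 1.37.

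Antigen presentation genes were raised in both classes. All 15 genes of class I presentation were higher, with a median log2 fold change of 1.37, and in each of the 15 every IL-4 MSC mouse was above every MSC mouse. H2-K1, a classical class I heavy chain, had 172, 228, 172, 168 and 188 CPM in the IL-4 MSC mice and 44.5, 45.8, 47.4, 49.7 and 48.9 CPM in the MSC mice (log2 fold change 1.97, SE 0.19, adjusted p = 1.16e-08). H2-Q7 and H2-Q6, whose reads can be shared among close copies, rose by 3.14 and 2.54, B2m, the class I light chain, by 1.37, the peptide transporter Tap1 by 1.43 and the class I regulator Nlrc5 by 1.48 on the log2 scale. Of 11 class II genes 9 rose. Cd74, the invariant chain, had 57.1, 71.9, 63.3, 47.4 and 59.5 CPM in the IL-4 MSC mice and 8.9, 10.7, 26.1, 9.43 and 10.3 CPM in the MSC mice. MSC mouse 3 lay well above its group but below each IL-4 MSC mouse (log2 fold change 2.19, SE 0.40, adjusted p = 0.000255). H2-Ab1 and H2-Aa did not overlap between the groups either, with log2 fold changes of 1.98 and 1.94, and the class II regulator Ciita rose by 0.67. H2-Oa and H2-Ob did not pass (0.56 and 0.25).

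Interferon-stimulated genes rose nearly as a block. Of 22 tested, 21 were higher, with a median log2 fold change of 1.49, and 20 showed no overlap of the mice. Irf7 (ENSMUSG00000025498, chromosome 7, 141262706 to 141266481), the regulator that amplifies type I interferon, had 37.3, 47.7, 45.4, 31 and 49.3 CPM in the IL-4 MSC mice and 8.43, 9.35, 7.13, 12.1 and 9.11 CPM in the MSC mice (log2 fold change 2.19, SE 0.21, adjusted p = 5.09e-09). PBS mice had 3.53 to 8.96 CPM and Sham mice 1.21 to 1.57 CPM. Oas2, a sensor of double-stranded RNA, had 11.2, 10.6, 10.7, 9.53 and 10.8 CPM in the IL-4 MSC mice and 1.86, 2.46, 2.56, 3.41 and 2.46 CPM in the MSC mice (log2 fold change 2.05, SE 0.23, adjusted p = 8.95e-08). The DNA sensor family member Ifi204 rose by 2.03, the nucleic acid sensor Zbp1 by 2.02 and Ifit1, which binds foreign mRNA caps, by 1.46 on the log2 scale. Cmpk2 was the member that did not pass (0.13, adjusted p = 0.227). The plain MSCs received neither mRNA nor reagent, and the part of these in the interferon-stimulated genes cannot be told apart from that of IL-4.

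**Figure D3:**
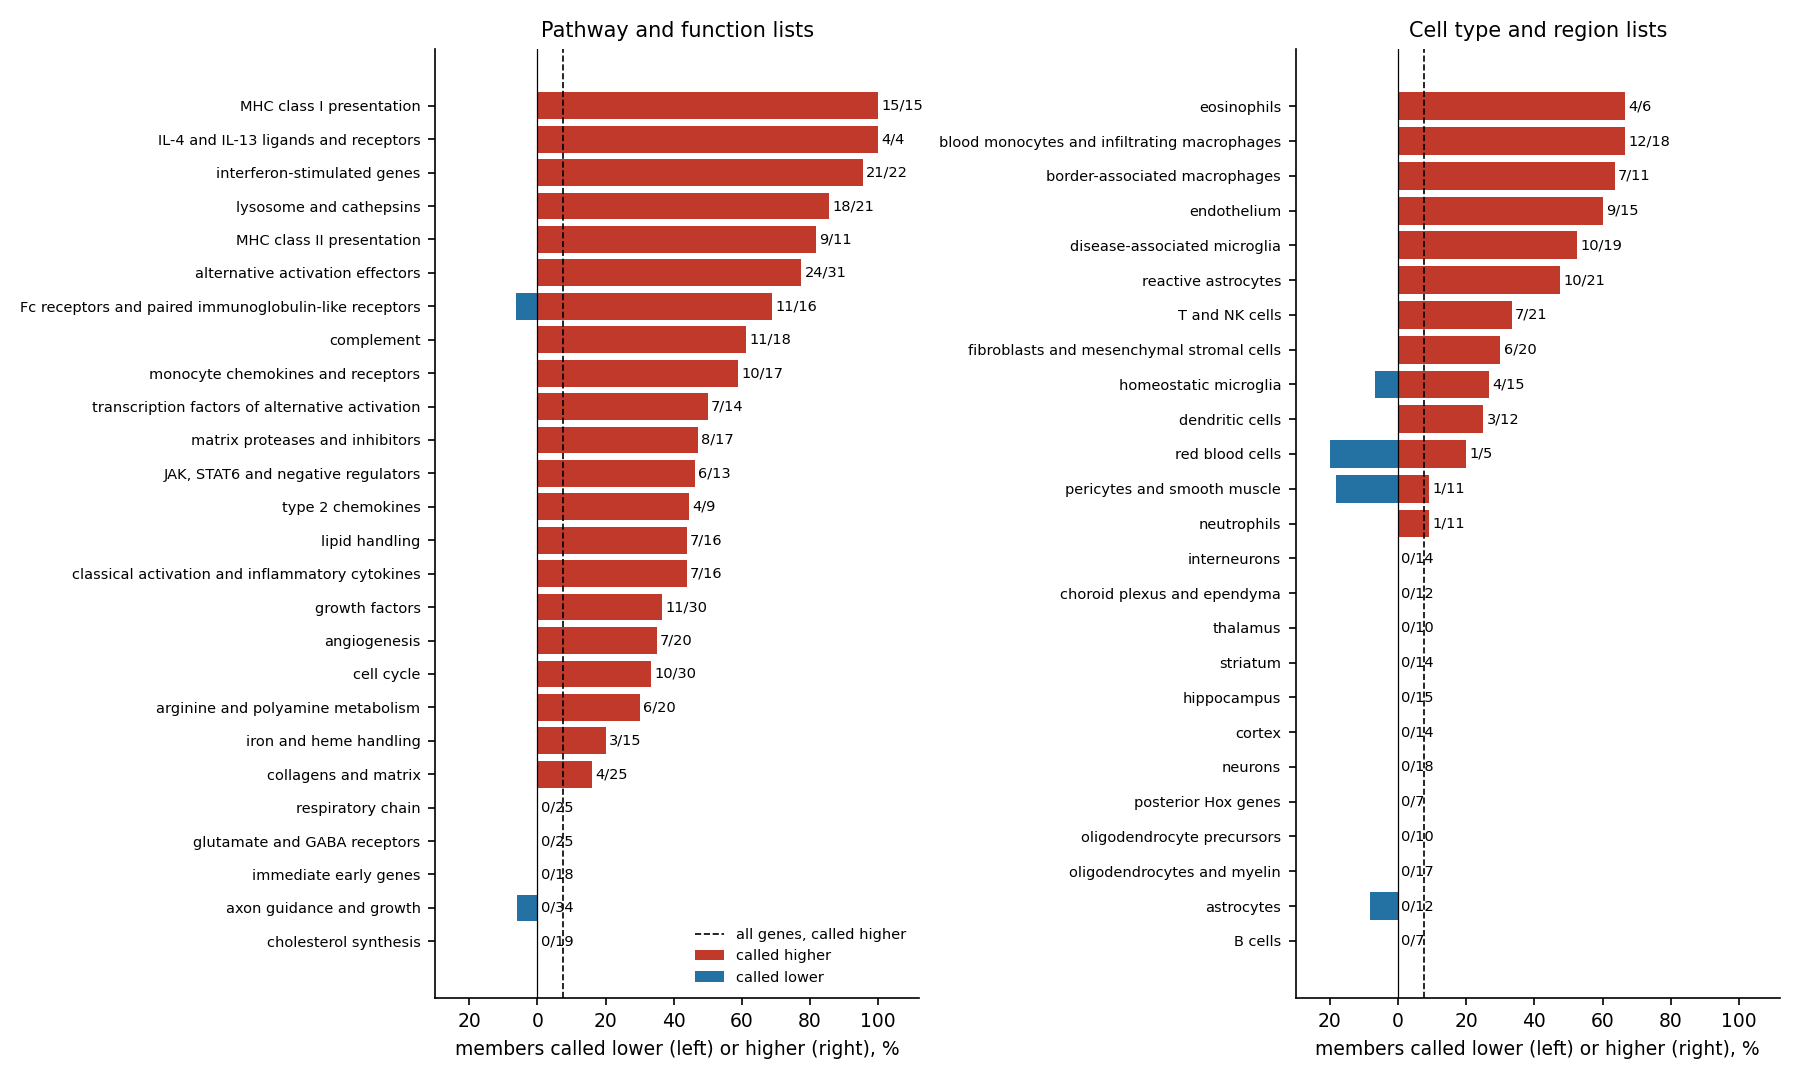
Percent of the tested members of each gene list called higher (right, red) or lower (left, blue) in IL-4 MSCs than in MSCs at 1 wpi, for pathway lists and for cell type and region lists with at least 4 members tested. Numbers give members called higher over members tested, and the dashed line is the 7.65% of all genes called higher. Class I presentation (15 of 15), interferon-stimulated genes (21 of 22) and lysosome genes (18 of 21) lie far right, whereas neuron, oligodendrocyte and synaptic receptor lists have 0.

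Genes of engulfment and degradation were also higher. Of 21 lysosomal genes and cathepsins, 18 rose and none fell, most by little, with a median log2 fold change of 0.43 (19 without MSC mouse 3). Atp6v0d2, a subunit of the proton pump, had 6.99, 6.22, 4.49, 6.26 and 4.5 CPM in the IL-4 MSC mice and 0.246, 0.182, 0.48, 0.318 and 0.125 CPM in the MSC mice (log2 fold change 4.36, SE 0.54, adjusted p = 5.67e-07). Ctss, the cathepsin that trims the invariant chain, had 289, 309, 238, 262 and 219 CPM in the IL-4 MSC mice and 87.8, 98.1, 121, 93.7 and 109 CPM in the MSC mice (log2 fold change 1.37, SE 0.19, adjusted p = 4.67e-06), and Ctsc rose by 1.48. Of 16 Fc receptors and related immunoglobulin-like receptors, 11 were higher, led by the inhibitory Fcgr2b with 72.8, 80.9, 76.5, 72.2 and 58.3 CPM in the IL-4 MSC mice and 9.2, 12, 19.2, 10.8 and 10.7 CPM in the MSC mice (log2 fold change 2.54, SE 0.30, adjusted p = 5.32e-07), Cd300lb (2.04) and Pirb (1.71). Fcrls, a microglial receptor, was the member that fell, with 28.1, 34.8, 27.8, 28.7 and 25.9 CPM in the IL-4 MSC mice and 42.3, 39.3, 54.9, 38.6 and 41.4 CPM in the MSC mice (log2 fold change -0.58, SE 0.14, adjusted p = 0.00439).

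Of 18 complement genes 11 were higher and none lower (13 without MSC mouse 3). C3, the central component, had 72.6, 71.2, 66, 65.4 and 72.1 CPM in the IL-4 MSC mice and 8.02, 14, 30.9, 8.69 and 14.3 CPM in the MSC mice. The MSC mice spread widely but stayed below the IL-4 MSC mice (log2 fold change 2.19, SE 0.59, adjusted p = 0.0146). Its receptor C3ar1 and factor B (Cfb) rose by 1.59 and 1.47, and C1qa, C1qb and C1qc by 0.64 to 0.67 on the log2 scale. In lipid handling 7 of 16 rose (8 without MSC mouse 3), with the oxidized lipoprotein receptor Olr1 first (2.21), then Cd36 (0.96) and the lipid droplet protein Plin2 (0.73). The call of Cd36 was lost without IL-4 MSC mouse 1 (adjusted p = 0.0739), and those of Cd36, Plin2 and Ftl1 in a fit of the injured groups of 1 wpi alone (0.052 to 0.0673). None of 19 genes of cholesterol synthesis passed in either direction, with a median log2 fold change of 0.034. Among 15 iron and heme genes, Cd163, biliverdin reductase Blvrb (0.57) and ferritin light chain Ftl1 (0.38) rose (4 genes without MSC mouse 3). The 3 are 20% of this list, beside 7.65% of all genes.

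Markers of monocytes and border macrophages were mostly higher, whereas most markers of resident microglia did not pass the test. Of 18 markers of blood monocytes and infiltrating macrophages, 12 were higher (13 without MSC mouse 3), and the mean log2 CPM of the list was 2.4 to 2.85 in IL-4 MSCs and 0.49 to 1.72 in MSCs. Chil3 (7.98 on the log2 scale) is 1 of the 12 and part of this mean, and is also in the list of alternative activation. Ly6c2, a surface protein of inflammatory monocytes, had 4.57, 4.47, 2.44, 4.58 and 3.19 CPM in the IL-4 MSC mice and 0.356, 0.334, 0.614, 0.637 and 0.25 CPM in the MSC mice (log2 fold change 3.12, SE 0.42, adjusted p = 1.97e-06). Ms4a7, which macrophages from blood express and microglia largely lack, had 9.17, 8.14, 5.38, 9.23 and 5.72 CPM in the IL-4 MSC mice and 0.958, 0.88, 1.47, 0.892 and 0.873 CPM in the MSC mice (log2 fold change 2.88, SE 0.25, adjusted p = 4.51e-10). Of 11 border macrophage markers 7 rose, among them Cbr2 (3.34), Siglec1 (2.23) and Pf4 (1.24), while Lyve1 had -0.15 and did not pass. Mrc1, Cd163, Folr2, Stab1, Lyve1, F13a1 and Cd209f of this list are also in the list of alternative activation.

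The list of homeostatic microglia markers overlapped between the groups, with mean log2 CPM of 4.81 to 5.12 in IL-4 MSCs and 4.86 to 5.00 in MSCs. Tmem119 had 22.6, 30, 24.5, 23.4 and 24.9 CPM in the IL-4 MSC mice and 24.2, 25.2, 23.6, 25.3 and 27.5 CPM in the MSC mice (log2 fold change 0.00, SE 0.08, adjusted p = 0.991). P2ry12 had 31, 37.3, 32.8, 29.6 and 31 CPM in the IL-4 MSC mice and 35.9, 31.7, 35.3, 33.8 and 35.1 CPM in the MSC mice (log2 fold change -0.09, SE 0.09, adjusted p = 0.687). Both genes overlapped between the groups. Of the 15 markers, Trem2 (0.47), Csf1r (0.32), Selplg (0.25) and Sall1 (0.21) rose and Fcrls fell (-0.58), as log2 fold changes. These are 26.7% higher and 6.67% lower, beside 7.65% and 1.00% of all genes, and 10 markers did not pass. Trem2 lost its call without IL-4 MSC mouse 2 or MSC mouse 1, 4 or 5, with adjusted p of 0.0533 to 0.102. Among 19 genes of disease-associated microglia 10 rose (11 without MSC mouse 3), led by Ccl6, Clec7a and Lgals3 (2.44), whereas Apoe, Lpl and Spp1 had log2 fold changes of -0.12, -0.25 and -0.50 and did not pass. Of 4 general leukocyte and macrophage genes chosen after their values were seen, Adgre1 (F4/80) rose by 1.50, Ptprc (CD45) by 1.08 and Aif1 (Iba1) by 0.45, while Itgam (CD11b) had -0.02 (adjusted p = 0.973). Aif1 lost its call without IL-4 MSC mouse 2 or MSC mouse 5 (adjusted p = 0.0503 to 0.0665).

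**Figure D4:**
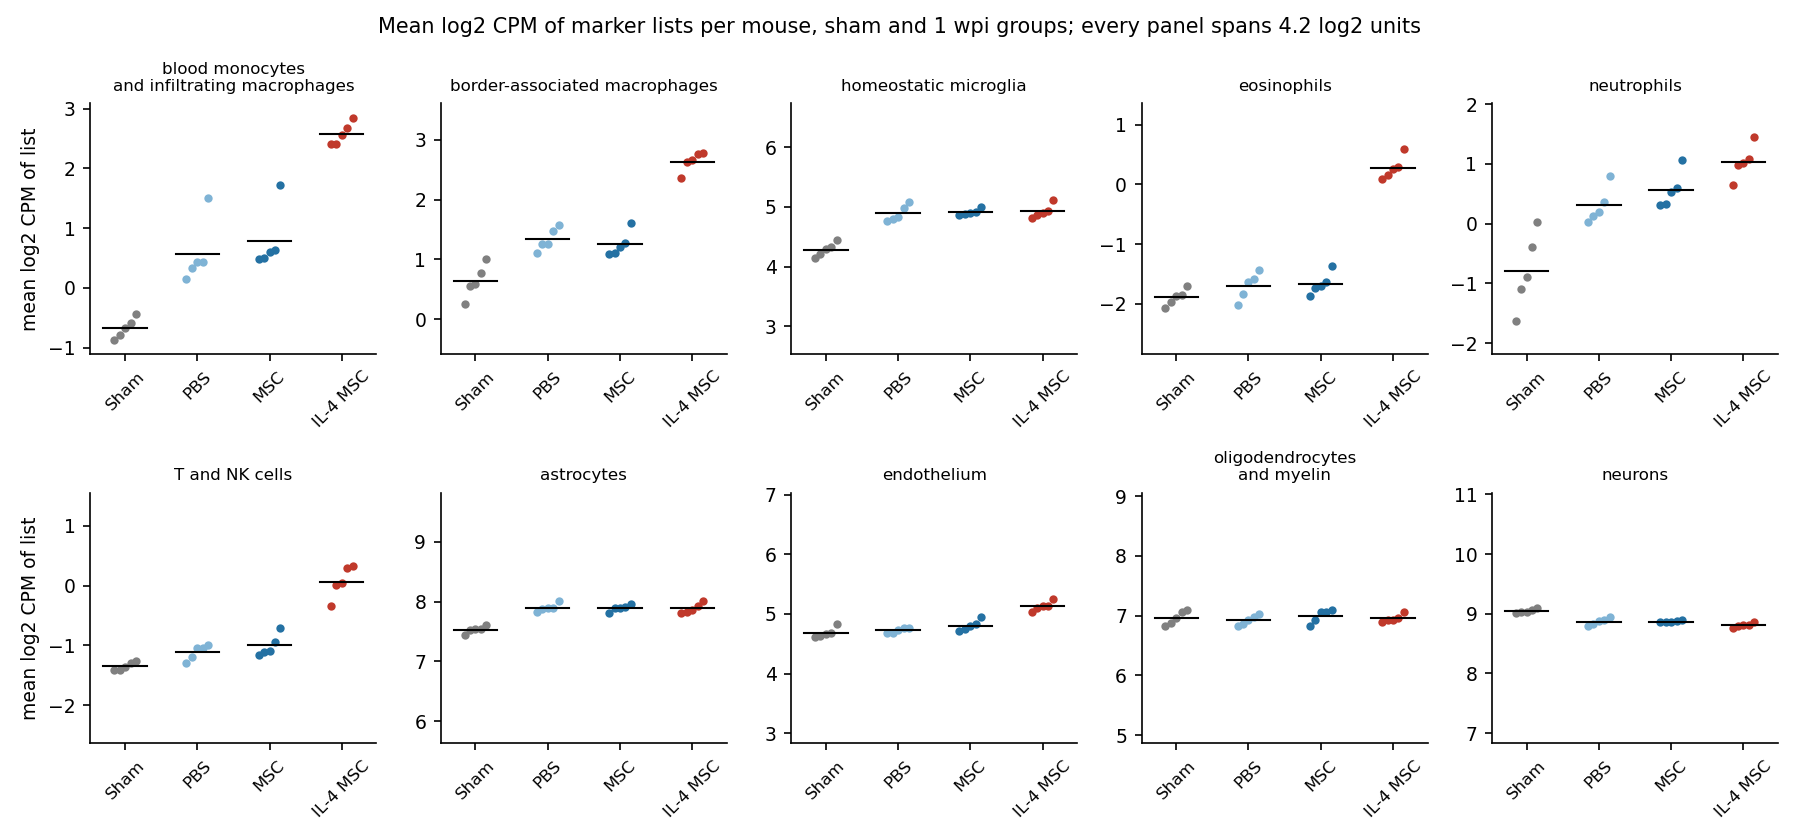
Mean log2 CPM of 10 marker lists in each Sham mouse and each mouse of the 1 wpi groups (points), with the group mean (line) and an equal span of the y axis in each panel. Monocyte, border macrophage, eosinophil, T and NK cell and endothelium lists are higher in IL-4 MSCs, and microglia, astrocyte and oligodendrocyte lists lie level with MSCs. The neuron list lies slightly lower (group means 8.81 and 8.87), a shift that is hard to see at this span. MSC mouse 3 is the high point of its group for monocytes (1.72). The monocyte list includes Chil3. The eosinophil list includes Alox15 and Ccr3, and the T and NK cell list Gzma, which passed the filter through IL-4 MSC mice alone.

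Other leukocytes were represented unevenly. Of 21 T and NK cell genes 7 rose. Gzma, a granule protease, had 1.8, 4.49, 3, 2.91 and 1.07 CPM in the IL-4 MSC mice and 0.0547, 0.121, 0.0534, 0.0637 and 0.0936 CPM in the MSC mice (log2 fold change 5.05, SE 0.48, adjusted p = 1.65e-09), and Gzmb, Prf1, Nkg7, Klrb1c, Il2rb and Il7r rose by 4.13, 3.04, 3.16, 2.25, 2.25 and 1.27 on the log2 scale. The T cell receptor complex genes Cd3d, Cd3e and Cd3g had 0.08, 1.00 and 0.84 and did not pass. Gzma, Gzmb, Prf1 and Nkg7 belong to the cytotoxic granules of NK and T cells, and Klrb1c is NK1.1. Gzma had at most 14 counts in any mouse of the other groups. It passed the filter through the IL-4 MSC mice of 1 wpi alone, which raises the share of the T and NK cell list. Of 10 eosinophil genes listed, 6 were tested, and Alox15, Ccr3, Ear2 (4.13) and Siglecf (1.12) of these rose. Prg2, Prg3, Ear1 and Ear6 were too low for the filter. Alox15 and Ccr3 had at most 6 and 5 counts in any mouse of the other groups. They passed the filter through the IL-4 MSC mice of 1 wpi alone, which raises the share of this list. Macrophages can also express Alox15, Ear2 and Siglecf. Eosinophil peroxidase, Epx, had 0.457, 1.01, 0.617, 0.3 and 0.726 CPM in the IL-4 MSC mice and 0.766, 0.425, 0.854, 0.764 and 0.561 CPM in the MSC mice (log2 fold change -0.11), and major basic protein, Prg2, at most 0.11 CPM in any mouse. Of 11 neutrophil genes 1 was higher, Retnlg (3.91), a share of 9.09% beside the 7.65% of all genes, while S100a8 had -0.86 and did not pass (3 genes higher without MSC mouse 3). Ccr7, Cd209a and Batf3 were the 3 of 12 dendritic cell genes that rose (25%). None of 3 mast cell genes or 7 B cell genes passed, but 8.66% of all genes did, so lists this small may well have none.

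Vessels and matrix showed selected changes. Of 15 endothelial genes 9 rose, all modestly. Pecam1 had 45.2, 52.4, 49.3, 44.5 and 36.5 CPM in the IL-4 MSC mice and 26.2, 22.1, 23.8, 20.5 and 20.2 CPM in the MSC mice, without overlap (log2 fold change 1.01, SE 0.09, adjusted p = 5.63e-10), and macrophages and platelets also express it. Vwf rose by 0.91, the tight junction gene Cldn5 by 0.64 and the VEGF receptor Kdr by 0.46, the last losing its call without IL-4 MSC mouse 1 or 2 or MSC mouse 2, 4 or 5 (adjusted p = 0.0675 to 0.144) and when only the 10 mice were fitted (0.104). Of 20 angiogenesis genes 7 rose (35%, 6 genes without MSC mouse 3), with Hk2 (0.74) and Vegfa (0.58) first. Vegfa had 85, 107, 85.1, 98.8 and 103 CPM in the IL-4 MSC mice and 71.8, 63.6, 59.3, 68.2 and 58.3 CPM in the MSC mice, with no overlap. Of 11 pericyte and smooth muscle genes, 1 rose, 2 fell and 8 did not pass, with a median log2 fold change of 0.021. The shares were 9.09% higher and 18.2% lower, beside 7.65% and 1.00% of all genes. Rgs5 (-0.27) and Vtn (-0.37) fell, while Anpep, an aminopeptidase shared by pericytes and myeloid cells, rose by 2.28.

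Of 25 collagen and matrix genes 4 rose, a share of 16% beside the 7.65% of all genes. Postn, or periostin, had 11.2, 14, 14.3, 8.87 and 7.81 CPM in the IL-4 MSC mice and 3.56, 2.88, 3.1, 2.42 and 3.24 CPM in the MSC mice (log2 fold change 1.88, SE 0.21, adjusted p = 8e-08). Lox, the collagen cross-linking enzyme, had 34.8, 30.5, 28, 25.1 and 15.3 CPM in the IL-4 MSC mice and 9.28, 7.44, 5.15, 9.84 and 5.21 CPM in the MSC mice (log2 fold change 1.86, SE 0.27, adjusted p = 8.02e-06), and fibronectin (Fn1) and Loxl2 rose by 0.98 and 0.42. The fibrillar collagens Col1a1, Col1a2 and Col3a1 had -0.43, -0.40 and -0.02 and did not pass. Of 17 matrix proteases and inhibitors 8 rose (10 without MSC mouse 3). Mmp13, a collagenase, had 3.95, 7.4, 5.47, 5 and 1.48 CPM in the IL-4 MSC mice and 0.0274, 0.243, 0.347, 0.255 and 0.125 CPM in the MSC mice (log2 fold change 4.52, SE 0.53, adjusted p = 2.11e-07), and Adam8, Mmp12 and Timp1 rose by 1.93, 1.69 and 1.48. Mmp12 lost its call without IL-4 MSC mouse 2 or 4 or MSC mouse 1, 2, 4 or 5 (adjusted p = 0.0578 to 0.0737). Of 30 growth factors 11 rose (36.7%, 10 genes without MSC mouse 3), with Tgfbi (2.18), Ereg (1.93) and Osm (1.53) the steepest, and Bdnf (-0.06) did not pass. Among 20 fibroblast and stromal genes, Postn, Ly6a, Cd44, Itgb1, Prrx1 and Eng rose (30%), and none of 7 posterior Hox genes passed.

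Genes of neurons and oligodendrocytes had no calls. None of 18 neuronal genes, 25 glutamate and GABA receptor genes, 18 immediate early genes, 25 respiratory chain genes, 17 oligodendrocyte genes, 10 oligodendrocyte precursor genes, 14 interneuron genes, 10 thalamus genes or 12 choroid plexus genes passed in either direction, and their median log2 fold changes lay between -0.092 and 0.046. Of all genes 7.65% were higher and 1.00% lower, so lists of this size may well have no lower call. Small shifts of the list means remain possible. Mean log2 CPM of the precursor list was 4.99 to 5.04 in IL-4 MSCs and 5.05 to 5.15 in MSCs. The neuron list had 8.76 to 8.87 and 8.85 to 8.89, and the other lists named here also overlapped. These shifts were not tested. Of 12 astrocyte genes, Slc1a2, the glutamate transporter GLT-1, was lower in each IL-4 MSC mouse than in any MSC mouse, with 3216, 3330, 3158, 3133 and 3208 CPM in the IL-4 MSC mice and 3583, 3938, 3677, 3683 and 4273 CPM in the MSC mice (log2 fold change -0.26, SE 0.05, adjusted p = 0.000352). Gfap, the filament protein of reactive astrocytes, had 1120, 1388, 1218, 990 and 956 CPM in the IL-4 MSC mice and 845, 876, 1007, 895 and 996 CPM in the MSC mice, and the groups overlapped (log2 fold change 0.30, SE 0.18, adjusted p = 0.396). Of 21 reactive astrocyte genes 10 rose (14 without MSC mouse 3), led by Ptx3 (1.84), Emp1 (1.82) and Timp1, which macrophages and stromal cells can also express. Ptx3 lost its call when only the 10 mice were fitted (adjusted p = 0.0575). Of 34 axon guidance genes, Slit2 (-0.22) and Efnb3 (-0.17) fell and none rose (1 each without MSC mouse 3). The share that fell was 5.88%, beside 1.00% of all genes. Slit2 lost its call without any 1 mouse other than IL-4 MSC mouse 1 and MSC mouse 3 (adjusted p = 0.0531 to 0.195), and Efnb3 without any 1 mouse other than MSC mouse 1 (0.0532 to 0.242). Both also lost it with DESeq2 size factors and with library size alone (adjusted p = 0.0514 to 0.0879). Of 30 cell cycle genes 10 rose (33.3%, beside 7.65% of all genes, and 9 genes without MSC mouse 3), with Ccnb1 (0.65), Kif20a (0.54) and Tk1 (0.54) the steepest of those called. Ccnb1 and Kif20a lost their calls without IL-4 MSC mouse 1 or 2 or MSC mouse 2, 4 or 5 (adjusted p = 0.0579 to 0.233), Tk1 without IL-4 MSC mouse 1, 2 or 3 or MSC mouse 2, 3 or 5 (0.0618 to 0.147), and all 3 when only the 10 mice were fitted (0.0871 to 0.205).

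Several genes outside any list were among the 15 highest. Msx3 (ENSMUSG00000025469, chromosome 7, 140046157 to 140049089), a homeobox gene of the dorsal neural tube, had 5.62, 6, 5.78, 5.06 and 3.75 CPM in the IL-4 MSC mice and 0, 0, 0.0534, 0.0318 and 0.0312 CPM in the MSC mice (log2 fold change 7.59, SE 0.48, adjusted p = 1.4e-13). Sham mice had 0 to 0.0738 CPM and IL-4 MSC mice at 3 wpi 0 to 0.136 CPM, around or below the floor. F7, coagulation factor VII, had 9.27, 8.44, 6.11, 9.77 and 5.11 CPM in the IL-4 MSC mice and 0.219, 0.182, 0.614, 0.127 and 0.156 CPM in the MSC mice (log2 fold change 4.84, SE 0.39, adjusted p = 1.09e-10). Rnase2a, a ribonuclease of the eosinophil-associated family, held 217 counts over the IL-4 MSC mice and 1 over the MSC mice, a ratio of 220 with a 95% counting interval of 39.1 to 8745 (exact binomial, counting error only). Gm5150, a predicted gene, rose by 4.78.

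The haemoglobin genes parted from one another. Hba-a2 (ENSMUSG00000069917, chromosome 11, 32296489 to 32297298), an alpha globin, had 162, 255, 214, 226 and 66.8 CPM in the IL-4 MSC mice and 2.57, 16.2, 7.87, 13.6 and 8.42 CPM in the MSC mice (log2 fold change 4.26, SE 0.67, adjusted p = 3.68e-05). No other group exceeded 27.9 CPM in any mouse. Its near-identical copy Hba-a1 (ENSMUSG00000069919, chromosome 11, 32283511 to 32284465) had 0.457, 0.356, 0.224, 0.18 and 0.581 CPM in the IL-4 MSC mice and 0.712, 4.28, 2.46, 3.5 and 2.43 CPM in the MSC mice (log2 fold change -2.88, SE 0.79, adjusted p = 0.0158). The beta globins went the same way as Hba-a1, Hbb-bs with 4.7, 1.59, 2.72, 2.1 and 3.86 CPM in the IL-4 MSC mice and 3.5, 16.2, 7.95, 12.3 and 8.98 CPM in the MSC mice (log2 fold change -1.71, adjusted p = 0.199) and Hbb-bt with a log2 fold change of -2.14 (adjusted p = 0.0918). Of the 5 red cell genes tested, Hba-a2 was higher, Hba-a1 lower and the other 3 did not pass. Reads of the 2 alpha copies can be split by the counting, so each value is uncertain, but the sum was also higher in IL-4 MSCs because Hba-a1 held at most 4.28 CPM. The sequence of the synthetic mRNA is not given in the sources used here, and whether some of the Hba-a2 reads came from it was not tested.

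The 10 lowest genes of at least 1 CPM were, besides Hba-a1 and Fcrls, of small difference or few counts. Fmo2, a flavin monooxygenase, had 0.849, 0.932, 1.01, 1.53 and 1.68 CPM in the IL-4 MSC mice and 2.16, 2.16, 2.54, 3.63 and 5.96 CPM in the MSC mice, with no overlap (log2 fold change -1.45, SE 0.27, adjusted p = 0.000243). Fmod and Myoc, secreted proteins of connective and meningeal tissue, fell by 0.60 and 0.59 on the log2 scale, and all MSC mice were above all IL-4 MSC mice. The Fam220a copy ENSMUSG00000083012 had 2.55, 1.56, 2.02, 1.77 and 2.03 CPM in the IL-4 MSC mice and 2.03, 7.98, 7.53, 2.64 and 2.99 CPM in the MSC mice, with MSC mice 2 and 3 high and MSC mouse 1 within the range of the IL-4 MSC mice (log2 fold change -1.23, SE 0.29, adjusted p = 0.00352). This call was lost when only the 10 mice were fitted (adjusted p = 0.0954). Npcd (-0.87) lost its call without IL-4 MSC mouse 1, 2 or 3 or MSC mouse 2, 3 or 4 (adjusted p = 0.0524 to 0.11). Gm14569 (-0.80) lost it without IL-4 MSC mouse 2 or 5 or MSC mouse 2 or 5 (0.0506 to 0.159), and Gm3696 (-0.64) without IL-4 MSC mouse 3, 4 or 5 or MSC mouse 2, 4 or 5 (0.0643 to 0.18). Trim71 (-0.56) lost it without any 1 mouse other than IL-4 MSC mouse 4 and MSC mice 2 and 3 (0.0664 to 0.203). Gm3696 and Trim71 also lost theirs with DESeq2 size factors and with library size alone (0.0514 to 0.061). The 5 genes that fell by at least 1 on the log2 scale were Hba-a1, Fmo2, this Fam220a copy and, below 1 CPM, Dpt (-1.5) and Angpt4 (-1.25).

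Most differences of 1 wpi were not seen 16 days after injection. At 3 wpi 380 genes were higher (2.22%) and 186 lower (1.09%), but these counts are not firm. Both became 0 when only the 10 mice of that week were fitted (2211 genes at an unadjusted p under 0.05) and when the striatum score was a covariate (1481 genes). They were 848 and 832 without IL-4 MSC mouse 2 of that week, and 55 and 25 without its mouse 4. They also moved by over 1.5 times without IL-4 MSC mouse 3 (234 and 101) or 5 (136 and 37) or MSC mouse 2 (178 and 100) or 5 (158 and 79) of that week. At 3 wpi 12 of 14 striatum markers were higher in IL-4 MSCs, with a median log2 fold change of 1.83, which at 1 wpi was 0.22 with none called. Of the 1311 genes higher at 1 wpi, 11 were higher again, 0.839% of them and 2.89% of those higher at 3 wpi, and the median log2 fold change of the 1311 at 3 wpi was -0.048. Another 6 were lower at 3 wpi (Rgs19, Slc29a3, Sh2d2a, Uaca, Ckap4 and Gpr171), with Sh2d2a at 1.43 and then -1.26 and Gpr171 at 2.00 and then -1.09. Postn was the steepest of the 11, at 1.88 and 1.02. Of the 172 lower genes, Cldn10, Wasf3, Abcg4, Ank2 and Mfsd6 were lower in both weeks, and Gpm6b and Nanos1 were higher at 3 wpi.

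Tested directly, the signed log2 difference was larger at 1 than at 3 wpi in 1007 genes (5.88%) and smaller in 312 (1.82%), the latter including 33 of the 172 genes lower at 1 wpi, and 869 of the 1311 higher genes (66.3%) were among the 1007. The 312 were not firm either, 543 without IL-4 MSC mouse 2 of 3 wpi and 94 to 204 without any 1 of 14 other mice, namely the 5 IL-4 MSC mice and MSC mice 2 to 4 of 1 wpi and IL-4 MSC mice 3 to 5 and MSC mice 1, 2 and 5 of 3 wpi. At 3 wpi the mean of Arg1 was 0.327 ± 0.146 CPM with IL-4 MSCs and 0.287 ± 0.292 CPM with plain MSCs, that of Chil3 0.356 ± 0.55 and 0.267 ± 0.476 CPM, and that of Mrc1 6.96 ± 0.38 and 8.71 ± 4.21 CPM (SD, n = 5 each). The Sham mice had 0.181 ± 0.0861, 0.122 ± 0.0649 and 6.91 ± 1.76 CPM. Hba-a2 had 12.2 ± 6.69 and 13.6 ± 12 CPM at 3 wpi. Of the 31 alternative activation effectors, 22 had a larger difference at 1 wpi, as did 14 of the 15 class I genes, 17 of the 22 interferon-stimulated genes and 9 of the 11 class II genes.

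**Figure D5:**
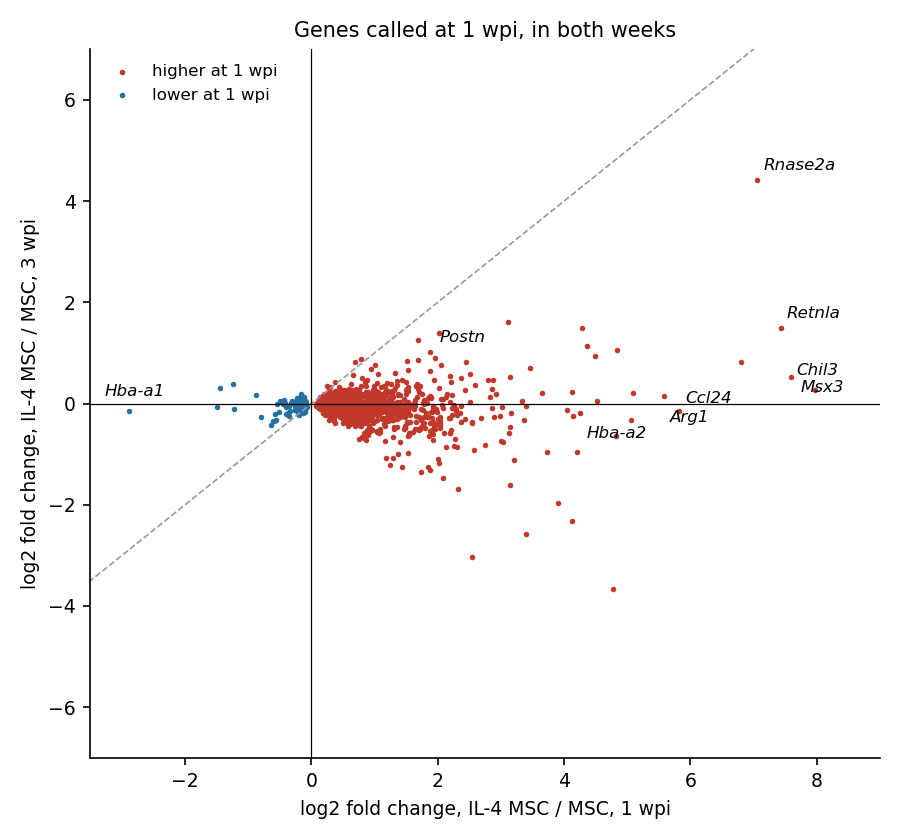
Log2 fold change of IL-4 MSCs over MSCs at 1 wpi (x axis) and at 3 wpi (y axis) for the 1311 higher (red) and 172 lower (blue) genes of 1 wpi, with the line of equal difference dashed. Most points lie along 0 on the y axis, with Chil3 at 7.98 and 0.26, and the 3 wpi position of Rnase2a is no measured fold, since all 5 MSC mice of that week had 0 counts.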

How the data were processed

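Bulk RNA-seq of tissue around the injection site was deposited as 1 table of 21203 protein-coding genes and 34 libraries. Per the labels and the methods of the study, the authors trimmed 50 bp paired reads with cutadapt 2.4, checked them with FastQC 0.11.8, assigned them to GENCODE vM23 transcripts with kallisto 0.46 and summed estimated counts per gene in sleuth 0.30 under R 3.6.1. Reads of overlapping genes and close copies are thus shared out by an estimate. Strand use in the counting is not given in the sources used here. The deposited table also holds the authors' comparison columns (log2 fold changes, p-values and q-values), which were not used, and TPM values made by the authors from the same kallisto estimates, which are not quoted. A PBS mouse of 3 wpi has no column in the table and was not analysed here. The labels name left cortex and a 2 mm width of tissue, whereas the methods describe the injection region of the hemisphere at a 3 mm width.

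Estimated counts were rounded, filtered with filterByExpr by group (17131 genes remained), scaled by TMM and fitted with edgeR 4.0.16 (R 4.3.3) in 1 quasi-likelihood model of the 7 groups, all 34 libraries sharing 1 estimate of the spread. Contrasts were IL-4 MSCs minus MSCs at 1 wpi, at 3 wpi and the difference of these. Adjusted p-values are Benjamini-Hochberg values over all genes tested, called under 0.05. The SE is the size of the log2 fold change before edgeR's shrinkage, divided by the square root of F, whereas the log2 fold changes quoted are after it. List scores are means of log2 CPM with a prior count of 2. For 7 genes under the filter, exact two-sided permutation tests compared the mice. Each mouse is 1 library, so p-values measure the spread between mice. The test was tried on simulated counts with known changes. The number of counts limits precision through counting error, and the floor is 3 counts.

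The 52 gene lists and the comparison were chosen with earlier results of these data known. Genes were named by a fixed rule. It took the 15 highest and 10 lowest called genes with at least 1 CPM in the higher group, the 3 called members of each list with the largest change, and a fixed set around IL-4 signalling. Other list members were named for their list's count, and Ptprc, Adgre1, Aif1, Itgam, the beta globins, Dpt, Angpt4 and the genes called at both weeks in either direction were chosen after their values were seen. Alternatives were DESeq2 1.42.0, other scalings, filters and sets of groups, a striatum score as covariate, the mouse number as a block, a fold threshold and leaving out each mouse. Mouse numbers did not pair the mice, since deviations of same-numbered mice correlated at -0.125 to 0.325 at 1 wpi and -0.153 to 0.243 at 3 wpi. Gene coordinates come from GENCODE vM21 and promoter sequences from RefSeq, both on GRCm38. A few named genes are not reported here.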

Additional observations from a re-analysis of the deposited data

Results flagged for a closer look

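Single mice stood apart from the other 4 of their group by Dixon's test in 11 of the values examined, and chance alone flags about 1 in 20 groups. The number of values examined is not given here, so the 11 cannot be set beside that rate. MSC mouse 3 was the high one for Fcrls (54.9 CPM) and Il1b (6.97 CPM), and also for Retnla (0.107 CPM) and Rnase2a (0.0267 CPM), where it had only 4 counts against 1 each and 1 count against 0 each. IL-4 MSC mouse 5 was the low one for Arg1 (106 CPM) and Gm5150 (0.61 CPM), and IL-4 MSC mouse 3 for Trim71 (0.645 CPM). IL-4 MSC mouse 2 was high for Socs1 (4.58 CPM). The values of MSC mouse 2 for Il4 (0.273 CPM), of IL-4 MSC mouse 3 for Il10 (0.028 CPM) and of MSC mouse 4 for Il10 (0.0318 CPM) rest on 9, 1 and 1 counts.

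The gap between the IL-4 MSC and MSC groups differed between the weeks, tested by an interaction contrast, in 1007 genes with a larger and 312 with a smaller signed value at 1 wpi. Among effectors of alternative activation, the log2 difference at 1 wpi exceeded that at 3 wpi by 7.72 for Chil3, 5.94 for Retnla, 5.44 for Arg1, 5.45 for Pdcd1lg2, 4.89 for Alox15, 3.70 for Mrc1 and 2.69 for Cd163. Among signalling genes it did so by 1.98 for Il4ra, 1.67 for Socs1 and 0.62 for Stat6. The chemokines Ccl8 and Ccl24 had values of 5.99 and 5.96, the granule protease Gzma 5.38, and Nos2 1.68. Outside these groups the values were 7.07 for Msx3, 4.46 for Mmp13, 3.79 for F7, 3.22 for Atp6v0d2 and -1.76 for Fmo2, the last of the opposite sign. Gm5150 had a fitted value of 8.44, which is neither a size nor a bound, because all 5 IL-4 MSC mice of 3 wpi had 0 counts. At 3 wpi the tissue pieces also differed in striatum markers, and the part of this in the 3 wpi side of these values was not tested gene by gene.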

How the results depend on the processing

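The 1311 higher genes of 1 wpi stayed within 1.5 times under every change of tool, scaling, filter or samples (1088 to 1434 when 1 mouse was left out), and 898 of them were called in all 20 alternative fits, as were 31 of the 172 lower ones. The lower genes were 114 with DESeq2 size factors, 72 with library size alone, 272 when only the 10 mice were fitted, and 51 to 218 when 1 mouse was left out. Of the week test, the smaller differences were 186 with library size alone and 186 when only its 4 groups were fitted, and leaving out 1 mouse gave 813 to 1478 larger and 94 to 543 smaller ones. At 3 wpi DESeq2 gave 336 lower genes, fitting only the 10 mice 0 higher and 0 lower (2211 at an unadjusted p under 0.05), the striatum covariate 0 and 0 (1481), and leaving out 1 mouse 55 to 848 higher and 25 to 832 lower. A log2 fold change of at least 1 left 363 higher and 5 lower genes at 1 wpi, 396 and 23 in the week test, and 50 and 15 at 3 wpi. The mouse number as a replicate block, which the check of pairing did not back, gave 1328 and 165 genes at 1 wpi in all libraries. With the block and only the groups compared, 283 were lower at 1 wpi, 190 smaller in the week test, and 0 and 0 at 3 wpi (2330 at an unadjusted p under 0.05). Genes that changed sign were all uncalled: Pparg from -0.06 (without MSC mouse 4) to 0.15 with 1 mouse left out, Il1b -1.03 to 1.22 with 1 mouse left out (1.22 without MSC mouse 3), 0.07 with the block and 0.11 with the block in the 10 mice, Tmem119 0.01 with DESeq2, 0.01 with DESeq2 size factors, 0.02 with library size, 0.00 in the injured groups and 0.01 to 0.05 with 1 mouse left out, and Itgam 0.01 with library size and 0.01 to 0.10 with 1 mouse left out. The cause of these moves was not tested. Messages under about 0.1 CPM, among them Il10, Ifng and Il12b, are below what this depth can resolve.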
